A study of Homo sapiens with 6 samples.

Results

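Kinesin motor genes were compared between MCF10A cells with an shRNA against FRY and MCF10A cells with a non-targeting one; MCF10A is an immortal line of human breast epithelium that forms no tumours. The members were chosen by name: each gene whose symbol is KIF followed by a number and an optional letter, among probe sets naming 1 gene. This gave 38 genes with 80 probe sets, of 19775 genes measured in all; each gene was represented by its probe set with the highest mean over the 6 samples. From textbook knowledge 12 of them were counted as mitotic, 13 as transport motors and 13 as motors of cilia, signalling or other roles. The kinesin genes CENPE, KIFC1, KIFC2 and KIFC3 carry other symbols and lie outside the rule.

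The samples were 3 of 10A-shFRY, a clone carrying the FRY-targeting shRNA, and 3 of 10A-CV, a clone carrying a non-targeting shRNA, called control here. Both were stably transfected, selected with puromycin and grown in the same medium with epidermal growth factor, insulin, hydrocortisone and pituitary extract. There was 1 clone per construct, and the 3 samples of a clone came from different passages. The p-values therefore rest on the spread among passages, and effects of the shRNA and of the choice of clone cannot be told apart. RNA was amplified into biotin-labelled cDNA and hybridised to 1 array per sample, and all values below are log2 values from RMA.

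Kinesins are motor proteins that use ATP to walk along microtubules or to take microtubule ends apart. One set builds and moves the mitotic spindle, carries chromosomes and completes cytokinesis, and its genes are switched on as cells pass through G2 and mitosis. Another set carries vesicles, endosomes, mitochondria and RNA through the cytoplasm at all stages of the cell cycle, and some of its members serve mainly neurons. FRY, the target of the shRNA, encodes a microtubule-associated protein.

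Some promoters of mitotic genes hold elements that are known to bind cell-cycle regulators. The cell-cycle genes homology region, CHR, was searched here as the letters TTTGAA only, with no variant. The CCAAT box binds NF-Y upstream of it. Both were searched on both strands in the 250 bases before the start of each gene in RefSeq's GRCh38.p14 promoters, which held 32 of the 38 kinesin genes. An E2F-like stretch, TTCCCGC, was searched in the same way. The 150 bases just before the start are shown for the 4 mitotic kinesin genes that fell in shFRY, for KIF4A, whose promoter holds both elements, and for KIF15 and KIF14, whose differences were the nearest to 0 or positive among the brighter mitotic members; capitals mark CCAAT (or ATTGG on the other strand) and TTTGAA (or TTCAAA).
KIF20A (chr5:138178962-138179111, + strand): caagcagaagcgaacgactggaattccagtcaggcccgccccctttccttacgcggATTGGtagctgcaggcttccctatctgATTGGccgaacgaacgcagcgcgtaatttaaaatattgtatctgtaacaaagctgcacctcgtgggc
KIF18B (chr17:44947774-44947923, - strand): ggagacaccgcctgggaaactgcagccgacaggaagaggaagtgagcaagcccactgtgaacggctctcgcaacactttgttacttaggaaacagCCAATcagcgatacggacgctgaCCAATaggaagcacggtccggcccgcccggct
KIF2C (chr1:44739687-44739836, + strand): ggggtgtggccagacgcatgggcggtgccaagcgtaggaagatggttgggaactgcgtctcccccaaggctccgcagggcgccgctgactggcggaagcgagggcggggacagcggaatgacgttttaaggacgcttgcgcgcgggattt
KIF11 (chr10:92592980-92593129, + strand): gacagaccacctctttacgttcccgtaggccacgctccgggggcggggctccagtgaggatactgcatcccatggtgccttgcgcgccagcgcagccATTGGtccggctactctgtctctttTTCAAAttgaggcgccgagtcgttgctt
KIF4A (chrX:70289954-70290103, + strand): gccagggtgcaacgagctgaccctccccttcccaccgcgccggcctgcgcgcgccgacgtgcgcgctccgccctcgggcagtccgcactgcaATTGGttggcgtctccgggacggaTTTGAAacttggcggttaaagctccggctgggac
KIF15 (chr3:44761644-44761793, + strand): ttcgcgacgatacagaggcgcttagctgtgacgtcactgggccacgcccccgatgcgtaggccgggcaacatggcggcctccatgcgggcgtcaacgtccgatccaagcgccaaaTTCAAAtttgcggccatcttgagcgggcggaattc
KIF14 (chr1:200620752-200620901, - strand): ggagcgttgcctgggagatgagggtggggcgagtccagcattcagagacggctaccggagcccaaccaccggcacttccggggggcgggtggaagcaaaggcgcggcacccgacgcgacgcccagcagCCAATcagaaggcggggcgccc
A CCAAT box was found before 9 of the 12 mitotic kinesin genes (75.0%), 4 of 11 transport genes (36.4%) and 2 of 9 other kinesin genes (22.2%), against 32.9% of 27305 promoters. TTTGAA was found before 5 of the 12 mitotic genes (41.7%), 1 of 11 transport genes and 0 of 9 others, against 13.7% of all promoters. The E2F-like stretch was found before 0 of the 12 mitotic genes, 2 of 11 transport genes and 1 of 9 others, against 5.5% of all promoters. Among mitotic genes, those with a CCAAT box were 3 of the 4 that fell and 6 of the 8 that did not pass, so the letters did not separate the 2 sets. TTTGAA was before KIF11 alone of the 4 that fell, and before 4 of the 8 others. These matches describe the letters of the windows and say nothing of binding.

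The groups were compared gene by gene with limma as shFRY minus control over all 19775 genes, and a gene was called higher or lower at a Benjamini-Hochberg adjusted p under 0.05. Of the 38 kinesin genes, 8 fell, 8 rose and 22 did not pass. This is 42.1% of them, against a background of 29.8% of all genes (16.0% lower and 13.7% higher). Signal differed too: 27 kinesin genes had a mean above 3.04, the median of all probe sets, and 14 of these passed (51.9%), against 44.2% of all genes above that line. Against genes of like signal the gap was smaller. The 2 directions were spread unevenly over the roles, as the plot of all members shows. No gene counted as mitotic rose and 4 of 12 fell, whereas 5 of 13 transport kinesins rose and 2 fell. KIF2A, which also acts at spindle poles, was counted under other roles and rose by 0.57. The roles were set with results of these samples known, so this contrast depends on that choice. Among brighter members 4 of 11 mitotic kinesins fell (36.4%), against 24.9% of brighter genes, and 5 of 9 transport kinesins rose (55.6%), against 19.3%. The median difference was -0.35 for mitotic, 0.19 for transport and 0.14 for the other kinesins, against 0.03 for all genes. The transport median was 0.0125 without shFRY replicate 3, 0.09 without control replicate 2 and 0.12 with array weights, so single samples decide its distance from the median of all genes.

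**Figure D1:**
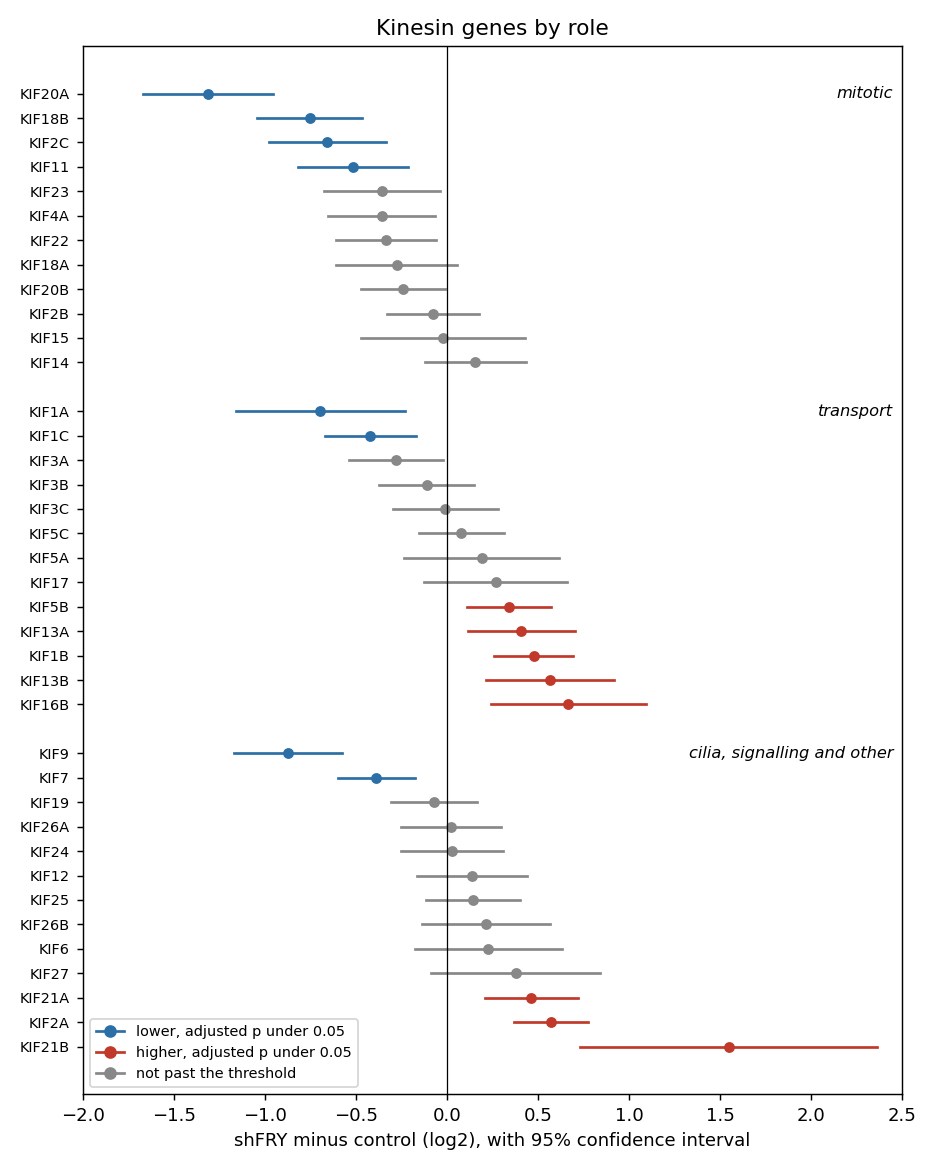
Difference between shFRY and control (log2, x axis) for each of the 38 kinesin genes, grouped by role, with the 95% confidence interval from limma; blue marks genes called lower, red genes called higher and grey genes not past an adjusted p of 0.05. The mitotic genes reach from -1.31 for KIF20A to 0.16 for KIF14, and the transport genes from -0.69 for KIF1A to 0.67 for KIF16B.

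Epithelial markers were high in all samples. Among 9 mammary epithelial markers measured the highest group mean was 13.01, and KRT5, a basal keratin, was at 11.6 in shFRY and 11.5 in control samples. Markers of other cell types were mixed. VWF and CDH5 of endothelium, CD3E of immune cells, ADIPOQ of adipocytes and COL1A2 and PDGFRA of fibroblasts had means of at most 2.498 in both groups. Several others lay above 3.04, the median of probe sets, in at least 1 group: PECAM1 was at 7.4 in shFRY and 7.5 in control samples, and COL1A1 at 4.34 in shFRY and 4.62 in control samples. KDR was at 3.35 in shFRY and 5.795 in control samples, TEK at 3.58 in shFRY and 1.73 in control samples, and PTPRC at 2.13 in shFRY and 3.19 in control samples. CSF1R was at 2.95 in shFRY and 3.28 in control samples, and CD79A at 2.92 in shFRY and 3.08 in control samples. The part of such cells in the kinesin results was not tested. The summed level of each list is given by its mean over genes: fibroblast markers (7 genes) lay between 2.54 and 2.72 in shFRY and 2.36 and 2.499 in control samples, and immune markers (5) between 2.35 and 2.52 in shFRY and 2.55 and 2.94 in control samples. Endothelial markers (5) lay between 3.55 and 3.91 in shFRY and 3.83 and 3.93 in control samples, and adipocyte markers (4) between 1.92 and 2.15 in shFRY and 1.81 and 2.07 in control samples. FRY itself had a lower mean in shFRY at all 4 of its probe sets, and 1 passed (-0.75, limma adjusted p = 0.0223). The brightest of the 4 was at -0.49 with overlapping groups and did not pass (limma adjusted p = 0.203). Probe sets for the 3' and 5' ends of beta-actin, a measure of RNA length, differed by 2.87 ± 0.03 in shFRY and 2.52 ± 0.19 in control samples on the log2 scale (SD over the 3 samples of a group), and no smaller two-sided p than the 0.1 found is possible in an exact permutation test of this size. The same difference for GAPDH was -0.07 ± 0.03 in shFRY and -0.09 ± 0.01 in control samples (exact permutation p = 0.4), so it showed no such shift. The beta-actin measure moved with the groups beside every result here. With it as a covariate, limma called 0 kinesin genes, against 5.19% of all genes. All 16 kinesin genes called in the fit without it kept their sign. The median size of their differences was 0.51, against 0.57 without the covariate, while the median standard error was 0.26, against 0.13. Among them KIF1A moved to -0.14, KIF13A to 0.18, KIF5B to 0.21 and KIF21A to 0.28.

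Of the mitotic kinesin genes, KIF20A, KIF18B, KIF2C and KIF11 fell in shFRY cells. The largest fall was that of KIF20A, which encodes the motor that brings the chromosomal passenger complex to the central spindle. KIF20A had values of 7.00, 7.24 and 7.62 in the shFRY samples, against 8.55, 8.64 and 8.61 in the control samples. All shFRY samples lay well below the controls, and they were spread more widely than the controls. Its log2 difference was -1.31 with an SE of 0.15 (adjusted p = 4.84e-04 in limma), a 2.48-fold fall, and it was the only one of the 8 lower kinesin genes to change by 2-fold or more (7.50% of all genes passed with such a change in either direction). KIF18B, a kinesin-8 that shortens astral microtubules at their plus ends, had 6.62, 6.84 and 7.03 in shFRY, against 7.53, 7.67 and 7.55 in control samples. Its groups did not overlap, and it fell by 0.75 (SE 0.13, limma adjusted p = 0.00274).

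KIF2C, also called MCAK, takes microtubules apart at centromeres and helps to correct faulty attachments of chromosomes. It had 6.29, 6.02 and 6.45 in shFRY, against 6.72, 6.98 and 7.03 in control samples, and fell by 0.66 (SE 0.14, limma adjusted p = 0.00899). Its other probe set fell as well, with 6.08, 5.87 and 5.97 in shFRY and 6.42, 6.41 and 6.49 in control samples. KIF11, also called Eg5, pushes the spindle poles apart and is the target of several antimitotic drugs. It had 8.16, 8.13 and 8.45 in shFRY, against 8.59, 8.91 and 8.78 in control samples, groups that stood apart by a narrow margin. It fell by 0.52 (SE 0.13, limma adjusted p = 0.0191). The calls of KIF20A, KIF18B and KIF2C were kept without any 1 sample. That of KIF11 was lost without control replicate 2 (adjusted p = 0.0721), control replicate 3 (0.0617), shFRY replicate 1 (0.0572) or shFRY replicate 2 (0.0624), with differences between -0.44 and -0.504 in these fits.

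**Figure D2:**
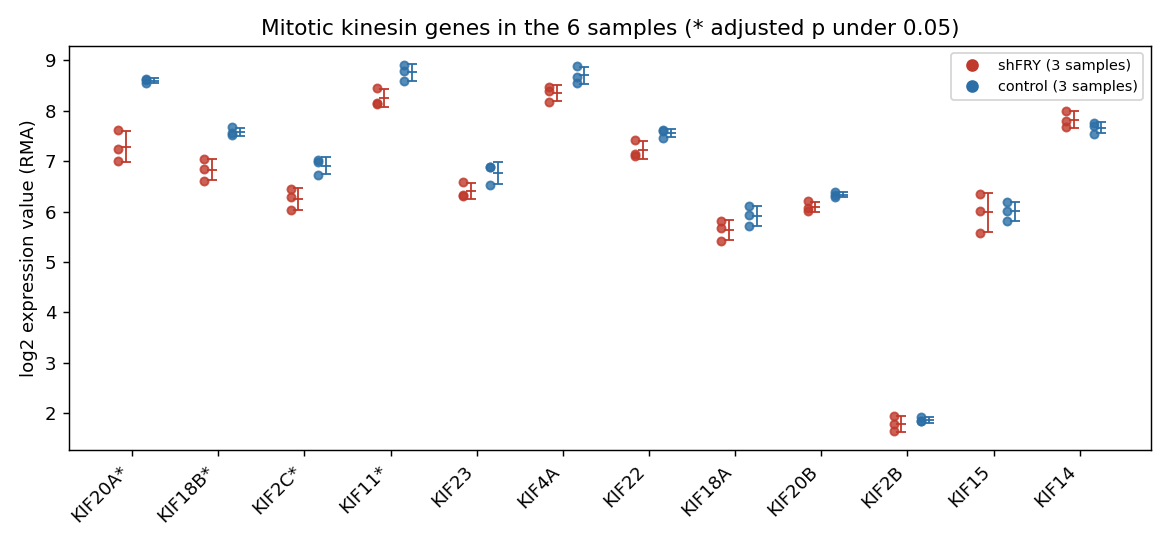
Log2 expression values (y axis) of the 12 mitotic kinesin genes in each shFRY sample (red) and control sample (blue), with the mean and SD beside the points (n = 3 each); a star marks an adjusted p under 0.05. KIF20A, KIF18B, KIF2C and KIF11 stand apart without overlap, and the groups of KIF14 and KIF15 share their range.

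The other mitotic kinesins did not pass. KIF4A, a chromokinesin that sets the length of the central spindle with PRC1, was the brightest of the role by mean. It had 8.17, 8.47 and 8.40 in shFRY, against 8.67, 8.88 and 8.55 in control samples, without overlap, for a difference of -0.36 (limma adjusted p = 0.0708, 95% confidence interval -0.65 to -0.06). KIF4B, an almost identical retrocopy of KIF4A, has no probe set of its own here, so the signal may hold both. KIF22, a chromokinesin that pushes chromosome arms from the poles, had a difference of -0.34 (adjusted p = 0.0681), and its other probe set passed at -0.48 (adjusted p = 0.0213). KIF23, the motor of the centralspindlin complex, had -0.36 (adjusted p = 0.0917), with overlap because shFRY replicate 1 (6.59) lay above control replicate 1 (6.52); its second probe set was at or below 2.05 in every sample and passed at -0.63.

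KIF18A, which dampens the movements of aligned chromosomes, had a difference of -0.27 (adjusted p = 0.200), and KIF20B, needed for the last step of cytokinesis, had -0.24 (adjusted p = 0.109). KIF15, a spindle motor that can stand in for KIF11, had 5.58, 6.02 and 6.35 in shFRY, against 5.82, 6.001 and 6.20 in control samples. The shFRY samples surrounded the controls, and the difference was -0.02 with a 95% confidence interval of -0.47 to 0.43. KIF14, a midbody motor of cytokinesis, had 7.67, 7.79 and 8.004 in shFRY, against 7.53, 7.75 and 7.71 in control samples, a difference of 0.16 (95% confidence interval -0.12 to 0.44) and the only positive one of the role. KIF2B, a spindle depolymerase gene, was dim, between 1.64 and 1.95 in all samples. In all, 7 of the 12 mitotic kinesins had every shFRY sample below every control sample, against 22.4% of all genes. Among members above 3.04 this held for 7 of 11, against 3955 of the 11859 genes above that line. Fewer dividing cells and less RNA per dividing cell cannot be told apart in bulk samples.

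Genes that work with the mitotic kinesins were examined from a list of 18, of which 17 were measured. Of these, 10 fell and 1 rose, with a median difference of -0.42; all 17 had means above 3.04, and of all genes above that line 24.9% fell and 19.3% rose. INCENP (-0.91) and CDCA8 (-0.90), members of the chromosomal passenger complex that KIF20A carries, and the spindle gene NUSAP1 (-0.87) had the largest falls. Of 8 proliferation markers, all above that line too, 4 fell and 0 rose, with a median of -0.42. The cyclin gene CCNA2 (-1.38), CCNB1 (-0.88) and UBE2C (-0.61) fell, while MKI67 (-0.23, adjusted p = 0.176) and TOP2A (-0.17, adjusted p = 0.307) did not pass. Regulators of mitotic transcription were mixed: of 11 genes 4 fell and 1 rose, a share near the 44.2% of brighter genes that passed, with falls of the pocket protein gene RBL1 (-0.69) and of RBBP4 (-0.498) and a rise of LIN37 (0.72). FOXM1, the main activator of G2 genes and chosen here after its values were seen, had 6.95, 7.05 and 7.16 in shFRY, against 7.44, 7.46 and 7.46 in control samples (-0.40, adjusted p = 0.0154).

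Averaged over the 12 mitotic kinesins, the samples had 6.39, 6.44 and 6.64 in shFRY and 6.78, 6.96 and 6.92 in control. The 13 transport kinesins averaged 5.77, 5.75 and 5.73 in shFRY and 5.64, 5.63 and 5.64 in control. The mean of the mitotic set minus that of the transport set was 0.74 ± 0.15 in shFRY and 1.25 ± 0.10 in control samples (SD, n = 3 each), a mean shift of -0.51. Sample by sample it was 0.62, 0.69 and 0.91 in shFRY and 1.14, 1.33 and 1.28 in control. The direction of the shift, though not its size, thus holds for each shFRY sample against each control sample. This shift is given as a description, since the roles were set with results of these samples known.

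**Figure D3:**
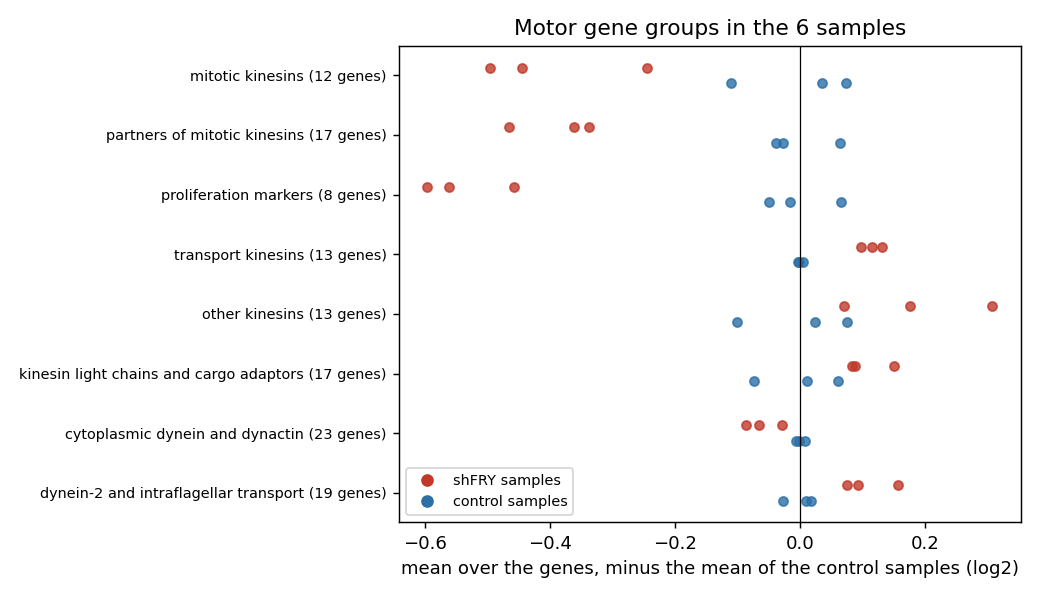
Mean log2 value over the genes of each group in each sample, minus the mean of the control samples (x axis), for shFRY samples (red) and control samples (blue). The mitotic kinesins, their partners and the proliferation markers lie to the left in every shFRY sample, and the transport kinesins lie slightly to the right.

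Among the transport motors, 4 kinesin-3 genes and the kinesin-1 gene KIF5B rose in shFRY cells, 5 of 13 in all (38.5%, against 13.7% of all genes). KIF1B, which carries mitochondria and vesicle precursors, had 7.63, 7.65 and 7.74 in shFRY, against 7.13, 7.24 and 7.21 in control samples. The groups were tight and well apart, and it rose by 0.48 (SE 0.09, limma adjusted p = 0.00599). Of its 4 probe sets 3 passed as higher, and the fourth was at 0.29. KIF16B, which moves early endosomes by binding their lipid PI3P, had 4.06, 4.43 and 3.63 in shFRY, against 3.33, 3.36 and 3.42 in control samples, and rose by 0.67 (SE 0.18, limma adjusted p = 0.0269). Its second probe set also passed, at 0.54.

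KIF13B, a motor for the polarity protein DLG1, had 7.04, 6.69 and 6.44 in shFRY, against 6.14, 6.23 and 6.11 in control samples, and rose by 0.57 (SE 0.15, limma adjusted p = 0.0242). The shFRY samples differed among themselves by more than the nearest of them differed from the controls. KIF13A, which carries recycling endosomes and vesicles from the trans-Golgi network, had 10.23, 10.096 and 9.87 in shFRY, against 9.62, 9.54 and 9.81 in control samples, and rose by 0.41 (SE 0.13, limma adjusted p = 0.0436). All 6 of its probe sets had positive differences between 0.19 and 0.41, though in the fit over probe sets none passed. KIF5B, the widely expressed heavy chain of conventional kinesin, had 10.82, 10.91 and 10.85 in shFRY, against 10.39, 10.61 and 10.54 in control samples, and rose by 0.34 (SE 0.10, limma adjusted p = 0.0341). Its 2 other probe sets were at 0.10 and 0.21, and neither passed. The one at 0.10 had nearly the same mean (10.64) as the one used (10.69).

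The rise of KIF1B was kept without any 1 sample, and those of the other 4 were not. KIF16B was lost without control replicate 1 (adjusted p = 0.0863), 2 (0.0761) or 3 (0.0637) or without shFRY replicate 1 (0.0662) or 2 (0.0559). KIF13B was lost without control replicate 1 (0.0764), 2 (0.0533) or 3 (0.0769) or without shFRY replicate 2 (0.0529). KIF13A was lost without control replicate 1 (0.121) or 2 (0.138) or without shFRY replicate 1 (0.121) or 2 (0.104). KIF5B was lost without control replicate 1 (0.106) or 3 (0.0834) or without shFRY replicate 1 (0.0580), 2 (0.0963) or 3 (0.0604). The direction of each stayed positive in these fits. As many as 5 and as few as 1 of the 13 transport genes thus passed as higher.

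**Figure D4:**
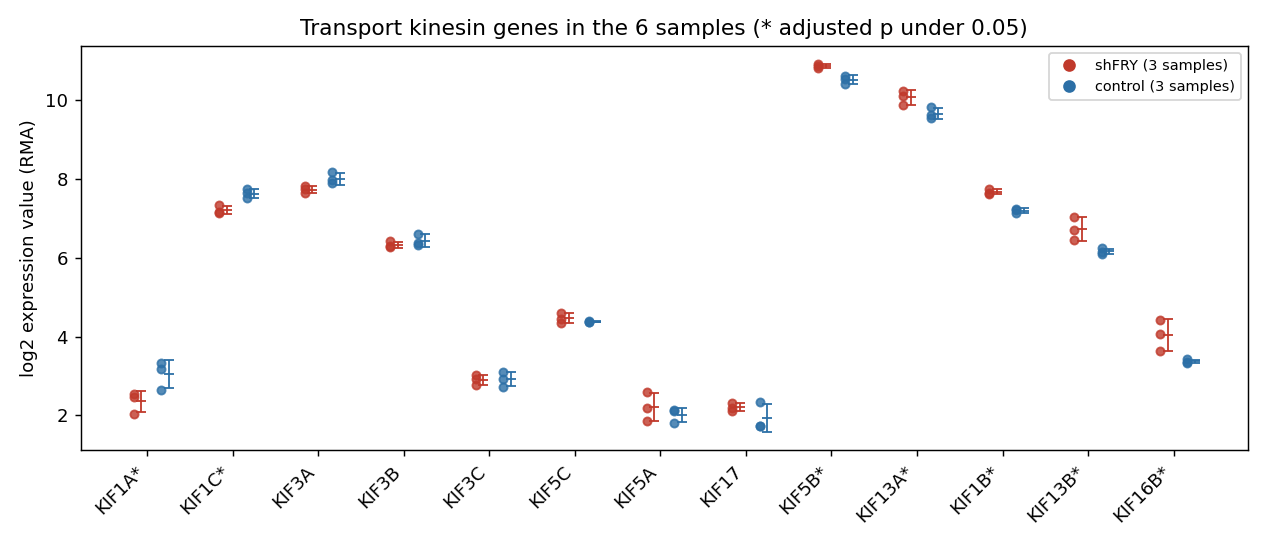
Log2 expression values (y axis) of the 13 transport kinesin genes in each shFRY sample (red) and control sample (blue), with the mean and SD beside the points (n = 3 each); a star marks an adjusted p under 0.05. KIF5B and KIF13A have the highest values, and the motors known mainly from neurons, such as KIF5A, KIF1A and KIF17, lie near the bottom.

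Transport motors that fell were KIF1C and KIF1A, both of the kinesin-3 family. KIF1C, which carries vesicles and messenger RNA in many cell types, had 7.16, 7.14 and 7.33 in shFRY, against 7.64, 7.51 and 7.74 in control samples, and fell by 0.42 (SE 0.11, limma adjusted p = 0.0205). Its second probe set had 5.23, 4.88 and 5.35 in shFRY, against 6.13, 6.21 and 6.29 in control samples, a larger gap of -1.06, while the remaining one, at 1.72 or below in every sample, was at 0.20 and did not pass. The call of the first was lost without control replicate 1 (adjusted p = 0.0618) or 3 (0.0788) or without shFRY replicate 1 (0.0569) or 2 (0.0662). KIF1A, a motor of synaptic vesicle precursors in neurons, was dim, with 2.48, 2.55 and 2.05 in shFRY and 3.33, 3.18 and 2.65 in control samples, and fell by 0.69 (SE 0.20, limma adjusted p = 0.0331). This fall rests on 1 of its 3 probe sets, the others being at -0.08 and 0.18, and it was lost without control replicate 1 (0.118) or 2 (0.105) or without shFRY replicate 1 (0.0533) or 3 (0.0898).

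None of the 4 kinesin-2 genes, which serve intraflagellar and vesicle transport, passed, against 29.8% of all genes. With 4 genes this is no clear departure from the background. KIF3A had 7.74, 7.63 and 7.81 in shFRY, against 7.88, 8.17 and 7.96 in control samples, for a difference of -0.28 (limma adjusted p = 0.102), while its second probe set passed at -0.58 (adjusted p = 0.0490). Its partner KIF3B was at -0.11, KIF3C at -0.01 and KIF17 at 0.27. KIF5A and KIF5C, the forms of conventional kinesin best known from neurons, were at 0.19 and 0.08.

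Among the 13 kinesins of other roles, 2 fell and 3 rose, against 16.0% and 13.7% of all genes, which is no clear departure from the background. KIF21B, which limits microtubule growth in neurons and lymphocytes, had the largest positive log2 difference among the kinesin genes, with 3.94, 2.76 and 4.37 in shFRY and 2.03, 2.33 and 2.06 in control samples. The shFRY samples were all above the controls, but shFRY replicate 2 lay much nearer to them than the other 2. It rose by 1.55 (SE 0.35, limma adjusted p = 0.0121). Its control values lay below the median of all probe sets, at the level of VWF (1.99 in control samples), so the size of this difference has no firm base and no fold is given. The call was lost without control replicate 1 (adjusted p = 0.0514). KIF21A, its paralog and a partner of the cortical protein KANK1, had 10.26, 10.14 and 10.16 in shFRY, against 9.55, 9.86 and 9.75 in control samples, and rose by 0.46 (SE 0.11, limma adjusted p = 0.0149). Its second probe set rose by 0.80.

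KIF2A is a kinesin-13 like KIF2C and takes microtubules apart at spindle poles and in neurons. It had 7.79, 7.80 and 7.82 in shFRY, against 7.21, 7.22 and 7.26 in control samples, the tightest groups among the genes described here with values per sample. It rose by 0.57 (SE 0.09, limma adjusted p = 0.00190), its second probe set rose by 0.59, and the 2 kinesin-13 genes thus passed in opposite directions. The calls of KIF21A and KIF2A were kept without any 1 sample.

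KIF9, a motor of motile cilia and sperm tails in the mouse, had 7.86, 7.76 and 8.20 in shFRY, against 8.87, 8.81 and 8.76 in control samples, and fell by 0.87 (SE 0.13, limma adjusted p = 0.00149). This value comes from a probe set whose name ends in _x_at, the mark of probes that may also match other transcripts, and a second such probe set gave nearly the same (-0.85). The probe set without that mark was at 2.66 or below in every sample, with a difference of -0.22 (adjusted p = 0.378 among probe sets), so the fall of KIF9 rests on _x_at probe sets. KIF7, a motor at the tip of the primary cilium in Hedgehog signalling, had 3.47, 3.41 and 3.499 in shFRY, against 3.80, 3.88 and 3.86 in control samples, and fell by 0.39 (SE 0.09, limma adjusted p = 0.0139). Its call was lost without control replicate 2 (adjusted p = 0.0518) or 3 (0.0503).

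The 8 kinesins of this role that did not pass were KIF6, KIF12, KIF19, KIF24, KIF25, KIF26A, KIF26B and KIF27, with differences between -0.07 and 0.38 and means of 3.28 or below. KIF26A, which binds microtubules without walking, was at 0.02 at its brightest probe set, while its other one passed at -0.69.

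Probe sets of a gene gave the same direction wherever more than 1 passed. Of the 80 kinesin probe sets, 27 passed in a limma fit over 54613 probe sets (33.8%, against 23.1% of all), 16 lower (12.2% of all probe sets were) and 11 higher (10.9%). Of the 24 kinesin genes with several probe sets, 7 had 2 or more passing in 1 direction (KIF2C, KIF1B, KIF1C, KIF16B, KIF2A, KIF21A and KIF9). In 0 genes did probe sets pass in both directions. The share among all genes with several probe sets was not counted, so these counts show nothing particular to kinesins. KIF5B and KIF13A, called among genes, missed the threshold in this larger fit (adjusted p = 0.0504 and 0.0582).

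**Figure D5:**
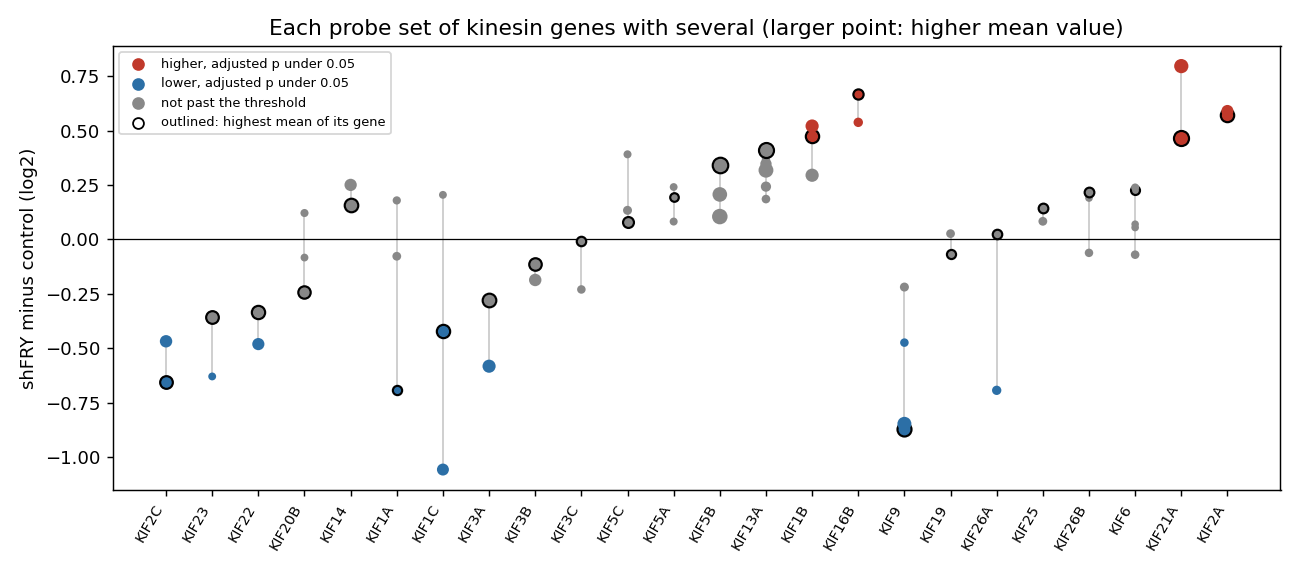
Difference between shFRY and control (log2, y axis) of each probe set of the 24 kinesin genes with several, in the fit over all probe sets; red and blue mark adjusted p under 0.05, outlined points the probe set with the highest mean of its gene, and point size the mean value. Probe sets of KIF2A, KIF1B and KIF16B lie together, and those of KIF9, KIF1A, KIF1C and KIF26A are spread by over 0.6.

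Partners of the transport motors were mixed. Of 17 measured light chain and cargo adaptor genes, 16 of them above 3.04, 4 rose and 3 fell, with a median difference of 0.10; this is near the 44.2% of brighter genes that passed. PLEKHM2, also called SKIP, which links lysosomes to kinesin-1, had 3.40, 3.38 and 3.83 in shFRY, against 2.62, 2.69 and 2.63 in control samples (0.89). TRAK1, an adaptor between mitochondria and kinesin-1, rose by 0.75, with 7.76, 7.53 and 7.41 in shFRY and 6.80, 6.94 and 6.71 in control samples, whereas its paralog TRAK2, chosen here after its values were seen, fell by 0.55. KIFBP, which binds the motor domains of several kinesins and blocks their hold on microtubules, fell by 0.62. Of the 5 kinesin-related genes outside the naming rule, all above 3.04, 2 fell and 1 rose, against 24.9% and 19.3% of genes above that line. KIFC1, a minus-end motor that clusters spindle poles, fell by 0.85, KIFC2 fell by 0.40 and KIFC3 rose by 0.83. CENPE, a mitotic kinesin of the kinetochore, had 7.87, 7.70 and 7.69 in shFRY, against 7.41, 7.57 and 7.55 in control samples (0.24, adjusted p = 0.118), and KIFAP3, the third subunit of kinesin-2, was at 0.03.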

How the data were processed

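The authors deposited log2 values from RMA for 54675 probe sets in 6 samples, per the submitters' processing notes; its version and settings are not stated there. RMA commonly makes the arrays' distributions alike, so a change shared by all genes cannot be seen and fold changes of dim genes are understated. The values were used as deposited, with no scanner files and no filter on low values. Probe sets were named by a platform annotation, symbols were updated through Entrez IDs (41037 of 41091 probe sets with 1 symbol), and 62 controls, 1801 probe sets with several symbols and 11721 with none were left out of the fit over genes. The 3 shFRY and 3 control samples were compared in limma 3.58.1 (R 4.3.3, functions lmFit and eBayes), with 4 residual degrees of freedom. Benjamini-Hochberg adjustment ran over 19775 genes or 54613 probe sets. The script was tested on simulated data. The number of arrays limits the precision. Groups come from the sample titles.

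The members, their roles and the lists were chosen with earlier results of these data known, and the promoter elements after the values were seen. Values per sample are given, for each role, for up to 6 members past the threshold in each direction with the largest differences and for the member with the highest mean, and other genes described that way were chosen after their values were seen. Of other lists up to 3 members past the threshold are named, the others having been picked later. The alternatives were other scalings, variance models, filters, probe set rules, sample weights, the replicate block, leaving out each sample and, added after seeing the data, a beta-actin covariate.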

Additional observations from a re-analysis of the deposited data

How the results depend on the processing

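Called genes were 5889 in all, and 4503 to 5766 without any 1 sample. The kinesins called lower were 8, and 5 to 8 without 1 sample; those called higher were 8, and 3 to 7 without 1 sample. Among the mitotic ones 4 fell, and 3 to 5 did without 1 sample. With probe sets averaged per gene 11 kinesins were called lower, and 6 mitotic ones were under that setting, the trend and robust options and the limit to probe sets above the median. Transport kinesins called higher were 5, 1 to 4 without 1 sample, and 3 with probe sets averaged per gene. With the beta-actin covariate limma called 1026 genes in all, and each of these 4 kinesin counts was 0. The replicate block left 3 transport kinesins called higher, KIF13A (adjusted p = 0.0839) and KIF5B (0.0577) being lost, and 5330 genes in all; it changed no other call of the kinesins named. The shared numbers did not pair the samples: the correlations of deviations were -1.92e-04, -0.00242 and 0.00684, and 2 of 6 samples correlated best with their own number. The median of the transport kinesins, 0.19, was 0.22 with median centring, 0.17 with another quantile normalization, 0.34 over the 9 members above the median of probe sets, 0.12 with array weights and 0.0125 to 0.23 without 1 sample, the lowest being without shFRY replicate 3. The median of the mitotic kinesins, -0.35, lay between -0.28 without control replicate 2 and -0.47 without _x_at and _s_at probe sets. Without _x_at and _s_at probe sets KIF9 (-0.22), KIF1A (-0.08) and KIF13A (0.32) were lost. With probe sets averaged, KIF1A (adjusted p = 0.199), KIF13A (0.0826) and KIF5B (0.107) were lost, as were KIF1A with array weights (0.0524) and KIF13A with another quantile normalization (0.0531). KIF7 was lost with the trend and robust options (adjusted p = 0.0648), and KIF4A passed with them (0.0210) and over probe sets above the median (0.0453). None of the 17 kinesin genes with values by the naming rule changed sign in any alternative run. The causes were not tested.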

Other observations

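Cytoplasmic dynein, the motor that walks the other way along microtubules, and its cofactor dynactin did not pass more often than genes of like signal. Of 23 measured genes, 21 of them above 3.04, 5 fell and 3 rose, with a median difference of -0.01. Among all genes above that line 24.9% fell and 19.3% rose. The members named here are those with the largest differences. DYNLL2, a light chain, had 8.81, 8.67 and 8.73 in shFRY, against 9.96, 10.04 and 10.08 in control samples (-1.29, limma adjusted p = 5.19e-05). DYNC1H1, the heavy chain that holds the motor, had 10.08, 9.90 and 9.88 in shFRY, against 8.90, 9.07 and 8.46 in control samples (1.15, limma adjusted p = 0.00113). The cargo adaptor gene BICD1 rose by 0.99.

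Genes of intraflagellar transport, which kinesin-2 and dynein-2 drive along the cilium, also did not pass more often than genes of like signal. Of 19 measured genes, all with means above 3.04, 4 rose and 2 fell, with a median difference of 0.00321. Among all genes above that line 19.3% rose and 24.9% fell. DYNC2H1, the heavy chain of dynein-2, had 6.05, 5.46 and 5.76 in shFRY, against 4.23, 5.02 and 4.34 in control samples (1.23, limma adjusted p = 0.00458), and IFT43 and IFT172 rose by 0.63 each. Among markers of mammary epithelium 6 of 9 rose and 1 fell (19.3% and 24.9% of brighter genes, where all 9 lie), led by KRT14 (2.92), LAMB3 (1.71) and ITGB4 (1.16). Of 5 luminal hormone receptor markers 2 fell and 1 rose (16.0% and 13.7% of all genes), with KRT8 at -0.93, GATA3 at -0.58 and PGR at 0.35. Of the other cell types' markers COL6A3 (1.38), TEK (1.85) and CIDEC (0.59) rose, and PTPRC (-1.06) and KDR (-2.45) fell. Means of COL6A3 were 2.55 in shFRY and 1.18 in control samples, of CIDEC 2.35 and 1.76, and of PGR 1.69 and 1.34. These 3 genes lay below 3.04 in both groups, so the sizes of their differences have no firm base.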
